A study of Mus musculus with 2 samples.

Results

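Oxidative phosphorylation genes were followed in single macrophages and microglia of mouse optic nerves, in 1 library from crushed and 1 from uninjured nerves. The members were all gene rows whose names start with mt-Nd, mt-Co, mt-Cyt or mt-Atp (mitochondrial genome) or with Nduf, Uqcr, Sdh, Atp5 or Cox4 to Cox8 (nuclear genome). Of 110 such rows, 105 had at least 1 unique molecular identifier (UMI, standing for 1 captured transcript), among 14428 genes with a UMI in the table. They comprised 13 mitochondrial and 92 nuclear genes, and 13 of the nuclear genes were assembly or other factors (Ndufaf, Sdhaf and Atp5s). Cox4i2, Cox8b, Cox8c, Cox7b2 and Atp5o.1 had no UMI in either library. The mice were Wildtype 129S1/SvlmJ animals of both sexes, 10 weeks old per the design text, whereas the source label of both libraries gives postnatal day 56. Those of the injured library had the optic nerve crushed at 8 weeks of age, 2 weeks before the cells were taken, and those of the uninjured library had no treatment. How many animals went into a library was not stated in the labels. With 1 library per group no difference has a replicate check, no test was made, and all intervals are 95% intervals that cover counting error only.

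Oxidative phosphorylation takes place at the inner mitochondrial membrane. Complexes I and II pass electrons from NADH and succinate to ubiquinone, complex III passes them on to cytochrome c, complex IV hands them to oxygen, and complex V, the ATP synthase, uses the resulting proton gradient to make ATP. Complexes I, III, IV and V hold subunits from both genomes, whereas complex II is wholly nuclear. The mitochondrial subunits are transcribed inside the organelle as long transcripts that are cut into shorter messages. The nuclear subunits are transcribed in the nucleus and translated on cytosolic ribosomes. In phagocytes the balance between oxidative phosphorylation and glycolysis is known to shift with activation.

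Some mitochondrial members share bases, so that UMIs near a boundary cannot be divided between neighbours with certainty. In the GENCODE vM21 annotation of mm10, mt-Atp8 and mt-Atp6 overlap by 43 bases and mt-Nd4l and mt-Nd4 by 7 bases on the same strand. Both stretches are shown with 30 bases on either side and with the shared bases in capitals. The values of these genes are given singly below, so their split within a pair is uncertain.
mt-Atp8 and mt-Atp6, chrM:7897-7999, plus strand: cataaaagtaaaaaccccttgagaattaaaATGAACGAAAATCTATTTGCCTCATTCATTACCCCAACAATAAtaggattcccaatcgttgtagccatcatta
mt-Nd4l and mt-Nd4, chrM:10137-10203, plus strand: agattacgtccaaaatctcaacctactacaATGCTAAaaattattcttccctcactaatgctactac
The mt-Atp6 and mt-Co3 genes share 1 base, and mt-Nd5 and mt-Nd6 share 14 bases on opposite strands. For every 100 mt-Atp6 UMIs there were 5.99 mt-Atp8 UMIs in the injured and 4.20 in the uninjured library.

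Known motifs of nuclear respiratory genes were searched on both strands of the members' promoters. RefSeq promoter sequences of build GRCm38.p6, each 300 bases from 250 before to 50 after a gene's start, were matched for 78 of the 92 nuclear members. Those without an entry included Ndufa2, Cox6c, Uqcrb, Ndufb9, Atp5a1, Ndufs1, Cox6a2, Uqcrc2, Cox4i1, Ndufa4l2, Uqcrq, Ndufaf6 and Sdhc. The palindrome bound by NRF1, whose letters are the capitals of the Cox6a1 stretch below, was present in 7 of the 78 (8.97%) and in 1.07% of all 27025 genes of the promoter table. The ETS letters CCGGAAG, searched with their reverse complement CTTCCGG, were present in 21 members (26.9%) and in 9.93% of all genes. For YY1, AAGATGGC or its reverse complement GCCATCTT was present in 11 members (14.1%) and in 3.19% of all genes. The letters TATAAA or TTTATA were present in 6 members (7.69%) and in 15.7% of all genes. At least 1 of the NRF1, ETS and YY1 motifs was found in 35 members (44.9%), and in 13.4% of all genes. These are matches of letters in a window and not measured binding. The shares of all genes cover the whole promoter table, whether or not a gene was seen in these cells. Whether the motifs bear on the levels measured here was not tested. The 4 stretches below are those of the members with most UMIs for NRF1 and ETS that lay outside annotated exons, on the gene's strand, with the motif in capitals.
Cox6a1, NRF1 letters, chr5:115349066-115349129, minus strand: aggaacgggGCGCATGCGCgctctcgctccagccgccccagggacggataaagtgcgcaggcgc
Ndufa11, NRF1 letters, chr17:56717686-56717756, plus strand: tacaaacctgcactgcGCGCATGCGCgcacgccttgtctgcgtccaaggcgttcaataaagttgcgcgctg
Atp5e, ETS letters, chr2:174464152-174464248, minus strand: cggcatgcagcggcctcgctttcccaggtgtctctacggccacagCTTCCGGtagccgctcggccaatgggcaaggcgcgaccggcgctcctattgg
Atp5l, ETS letters, chr9:44920903-44920992, minus strand: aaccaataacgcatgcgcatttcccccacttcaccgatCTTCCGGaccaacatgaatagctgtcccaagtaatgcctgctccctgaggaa

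The injured library held 727 cells and 3697992 UMIs and the uninjured library 51 cells and 87499 UMIs, with medians of 1123 and 888 UMIs per cell and no shared cell barcode. All 12 macrophage and microglia markers were seen in both libraries. Their summed level was 4.19% of the UMIs of the injured and 2.95% of those of the uninjured library, and 48 of the 51 uninjured cells had such a UMI. An uninjured cell of 11100 UMIs held 10194 haemoglobin UMIs, and it entered all values unless its omission is stated. Cells were also divided by depth and by Malat1, a nuclear long noncoding RNA. Deep cells had at least 5000 UMIs (144 injured and 4 uninjured cells), and shallow cells were Malat1-rich at 1% or more of their UMIs (91 and 17 cells) or Malat1-poor below that (492 and 30 cells). The same marker list made up 4.35%, 1.59% and 4.18% of the UMIs of deep, Malat1-rich and Malat1-poor injured cells, and 2.14%, 3.50% and 3.55% of those of uninjured cells. Without the haemoglobin-rich cell the uninjured values were 3.10% in deep cells and 3.38% in all cells. Near the Malat1 limit, 59 injured and 1 uninjured shallow cells lay between 0.5% and 2%.

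The 13 mitochondrial subunit transcripts took a smaller share of the injured than of the uninjured library. They made up 2.75% of injured and 5.39% of uninjured UMIs, a level 1.96-fold lower in the injured library (interval 1.90 to 2.02), and the ratio went from 0.510 to 0.457 without the haemoglobin-rich cell. Each complex with mitochondrial subunits was lower. The complex I genes were 1.79-fold lower (1.69 to 1.91) and cytochrome b of complex III, mt-Cytb, 1.65-fold lower (1.49 to 1.83). The 3 catalytic core genes of complex IV were 2.07-fold lower (1.98 to 2.16) and the complex V genes 2.07-fold lower (1.94 to 2.20). In bulk sums of this kind, fewer cells with a transcript and less of it per cell cannot be told apart, so values per cell are given further on.

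Genes were compared between libraries on the log2 scale of CPM (UMI counts scaled to one common library total) plus 10. The comparison took in 4021 genes that 10% or more of the cells in either library contained. A gene was counted as higher or lower from a 1.5-fold difference on that scale. Of all genes compared, 32.8% were higher and 21.8% lower in the injured library. Of the 13 mitochondrial genes, 8 were lower, 4 lay between the limits and 1 was higher. The counting interval of the ratio lay below 1 for 9 of them and above 1 for 1 gene, mt-Nd4l. The lowest ratio belonged to mt-Nd3 (M:9459-9806), a core membrane subunit of complex I, at 434 CPM injured and 1589 CPM uninjured, or 3.66-fold lower (3.06 to 4.36). Next was mt-Nd1 (M:2751-3707), at the ubiquinone end of complex I, with 946 against 3371 CPM, or 3.56-fold lower (3.15 to 4.02). The complex IV gene mt-Co3 stood at 3881 against 9920 CPM, 2.56-fold lower (2.38 to 2.74), and mt-Co1, which carries the oxygen-reducing centre, at 4076 against 8343 CPM, 2.05-fold lower (1.90 to 2.20). For mt-Atp6, part of the proton path of the ATP synthase, 5051 and 10617 CPM gave a 2.10-fold lower level (1.97 to 2.25). These genes belong to 3 different complexes. Lower levels were also measured for mt-Nd2 (1386 against 3371 CPM), mt-Co2 (4539 against 7612 CPM) and mt-Cytb (2571 against 4251 CPM). The level of mt-Atp8, at 303 against 446 CPM, was 1.47-fold lower (1.04 to 2.03) and lay between the limits.

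Other complex I genes of the same genome stood apart from this range. The mt-Nd4 level was 2808 CPM injured and 2960 CPM uninjured, a ratio of 0.949 whose interval (0.838 to 1.08) includes no difference. For mt-Nd5 the ratio was 0.842 (0.660 to 1.09), from 644 and 766 CPM. The mt-Nd4l gene was 1.34-fold higher in the injured library (1.01 to 1.82), at 752 against 560 CPM. The mt-Nd6 gene, the sole mitochondrial member on the minus strand, passed the 1.5-fold limit upward at 95.5 against 57.1 CPM, but it had 5 uninjured UMIs and its ratio of 1.67 had an interval of 0.709 to 5.18.

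Nuclear subunit transcripts took a larger share of the injured library. The 92 nuclear genes together made up 1.66% of injured and 1.02% of uninjured UMIs, a 1.63-fold higher level (1.53 to 1.75), or 1.45-fold without the haemoglobin-rich cell. All 5 complexes were higher. The ratios were 1.63 for complex I (1.44 to 1.85), 2.09 for complex II (1.26 to 3.74, on 15 uninjured UMIs), 1.72 for complex III (1.40 to 2.15), 1.58 for complex IV (1.40 to 1.80) and 1.71 for complex V (1.5 to 1.95). These intervals overlap one another. The 13 assembly and other factors had a ratio of 0.871 with an interval of 0.577 to 1.38. The Ndufaf and Sdhaf genes among them encode proteins that guide the building of the complexes and are not part of them.

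Of the 92 nuclear members, 77 passed the filter on cells, 40 of these were higher, 0 were lower and 37 lay between the limits, against 32.8% higher and 21.8% lower of all genes compared. The median log2 ratio was 0.61 for the 77 members and 0.17 for all genes compared. When the ratios were centred on the latter, 32 members were higher and 0 lower, beside 27.1% higher and 27.1% lower of all genes. Without the haemoglobin-rich cell 33 members were higher and 0 lower, beside 28.2% and 26.8% of all genes. The filter favours genes that are high in the larger library: 28 members passed through the injured library only, of which 18 were higher and 0 lower, beside 43.7% and 9.1% of the 2440 genes that passed in this way. The other 49 passed in both libraries, of which 22 were higher and 0 lower, beside 17% and 37.2% of 1477 genes. Without any filter beyond 1 UMI, 45 of 92 were higher and 5 lower, beside 20.7% and 21.5% of 14407 genes. By a level over both libraries that would give at least 5 uninjured UMIs, 39 of 72 were higher and 0 lower, beside 37.5% and 16.2% of 2000 genes. Single members were measured thinly: 40 of the 77 had under 10 uninjured UMIs, the most of any was 48, and the counting interval lay above 1 for 28 and below 1 for 0. The 15 members that did not pass were 11 of the 13 factors and the isoform genes Cox6a2, Cox6b2, Cox7a1 and Ndufa4l2.

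**Figure D1:**
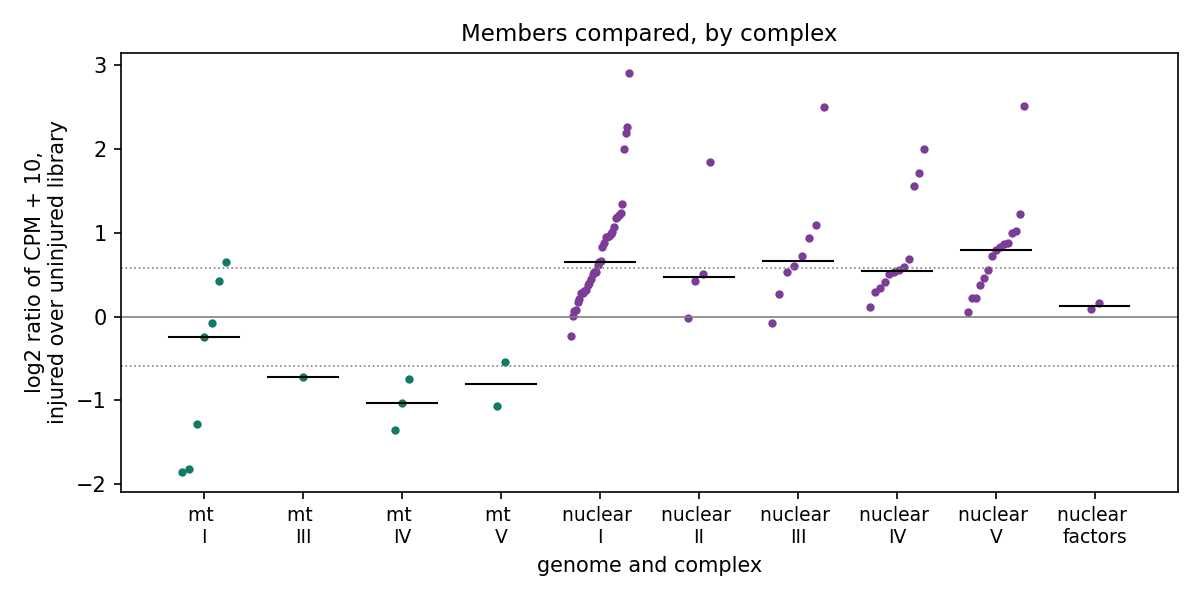
Log2 ratio of CPM plus 10, injured over uninjured library, for the 13 mitochondrial (mt, green) and the 77 compared nuclear (purple) genes, 1 point per gene, grouped by complex, with black bars at the group median and dotted lines at the 1.5-fold limits. The mitochondrial points reach from -1.85 to 0.65 and the nuclear points from -0.23 to 2.90.

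Complex I had 20 of 36 compared nuclear members higher, beside 32.8% of all genes compared. The log2 ratios of its members ran from -0.23 to 2.90. The member with most UMIs, the accessory subunit gene Ndufa1, stood at 335 CPM injured and 126 CPM uninjured, 2.67-fold higher (1.49 to 5.36). The next most abundant genes, Ndufa13 with 296 and 206 CPM and Ndufa2 with 295 and 240.0 CPM, also encode accessory subunits and lay between the limits. The highest log2 ratios came from genes that were hardly seen in the uninjured library. Ndufs4, an accessory subunit of the NADH-oxidising arm, had 240 injured and 0 uninjured UMIs and was at least 1.89-fold higher, taking 3 UMIs over the uninjured library as the limit of a count of 0. The core subunit genes Ndufs3 and Ndufs8, which lie on the path of electrons to ubiquinone, and the accessory subunit gene Ndufa10 had 1 uninjured UMI each beside 342, 323 and 280 injured UMIs. Their ratios were 8.09 (1.44 to 321), 7.64 (1.36 to 303) and 6.63 (1.18 to 263). At the other end, Ndufb3 stood at 96.3 and 114 CPM, Ndufc2 at 173 and 171 CPM and Ndufb5 at 168 and 160.0 CPM, and each interval included 1.

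Beside 32.8% of all genes compared, complex II, which also serves the tricarboxylic acid cycle, had 1 of its 4 members higher. This was Sdhb, the iron-sulphur subunit, at 190.1 and 45.7 CPM, 4.16-fold higher (1.62 to 15.3) on 4 uninjured UMIs. The flavoprotein gene Sdha stood at 69.2 and 45.7 CPM, and the membrane anchor genes Sdhd and Sdhc at 64.9 and 45.7 CPM and at 33.8 and 34.3 CPM. Their intervals all included 1.

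Complex III had 5 of 8 members higher, beside 32.8% of all genes compared. The hinge subunit gene Uqcrh stood at 459 and 274 CPM (ratio 1.67, 1.12 to 2.62) and Uqcr11 at 279 and 126 CPM (2.22, 1.23 to 4.45). The Rieske iron-sulphur subunit gene Uqcrfs1 had 410 injured UMIs and 1 uninjured UMI, a ratio of 9.70 (1.73 to 384). Uqcrq, with 269 and 183 CPM, lay between the limits, and so did the core subunit gene Uqcrc1, with 86.3 and 91.4 CPM.

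Complex IV had 5 of 12 compared members higher, beside 32.8% of all genes compared. The most abundant of all nuclear members, the small subunit gene Cox8a, stood at 886 and 549 CPM, a ratio of 1.61 (1.22 to 2.19). Cox4i1, which carries an ATP-binding regulatory site, stood at 684 and 537 CPM (1.27, 0.955 to 1.74), and Cox7c at 589.5 and 411 CPM (1.43, 1.03 to 2.05). Neither passed the 1.5-fold limit.

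Complex V had 9 of 15 members higher, beside 32.8% of all genes compared. Atp5e, the epsilon subunit of the rotor stalk, stood at 649 and 389 CPM (1.67, 1.19 to 2.42), and Atp5l, subunit g, at 460 and 309 CPM (1.49, 1.02 to 2.27), which did not reach the limit on the scale with 10 CPM added. The genes Atp5g1, Atp5g2 and Atp5g3 all encode the c subunit of the rotor ring. Atp5g2, with most UMIs, was at 557 and 274 CPM (2.03, 1.36 to 3.18), and Atp5g1 at 242 and 34.3 CPM (7.07, 2.41 to 34.3) on 3 uninjured UMIs. Atp5k, subunit e, stood at 203 and 194 CPM, with an interval of the ratio from 0.647 to 1.80.

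Because the mitochondrial part was lower and the nuclear part higher, the balance between them differed more than either. Each nuclear UMI was accompanied by 1.66 mitochondrial UMIs in the injured and 5.30 in the uninjured library, 3.20-fold fewer (2.98 to 3.45). This quantity uses no library total. Within complexes the ratio was 2.92-fold lower for complex I, 2.85-fold for complex III, 3.27-fold for complex IV and 3.53-fold for complex V. The interval of complex III, 2.25 to 3.65, includes the values of the other complexes. Sums of all cells mix kinds of cells that differed strongly in both parts, as the following values show.

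Dividing the cells by kind gave mitochondrial levels that went in different directions between libraries. Malat1-poor shallow cells carried 1.21% mitochondrial subunit UMIs in the injured and 9.52% in the uninjured library, 7.85-fold lower (7.49 to 8.22). Malat1-rich shallow cells carried 11.7% in the injured and 4.41% in the uninjured library, 2.65-fold higher (2.50 to 2.82). Deep cells carried 2.51% and 3.10%, a ratio of 0.811 (0.764 to 0.861). Leaving out the haemoglobin-rich cell gave 0.626 (0.588 to 0.667). The median cell gave the same order, with 0.503% and 8.11% in Malat1-poor, 10.7% and 3.11% in Malat1-rich and 2.36% and 3.82% in deep cells of the injured and uninjured library. Whether these differences between kinds differ beyond the spread of libraries could not be tested with 1 library each.

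**Figure D2:**
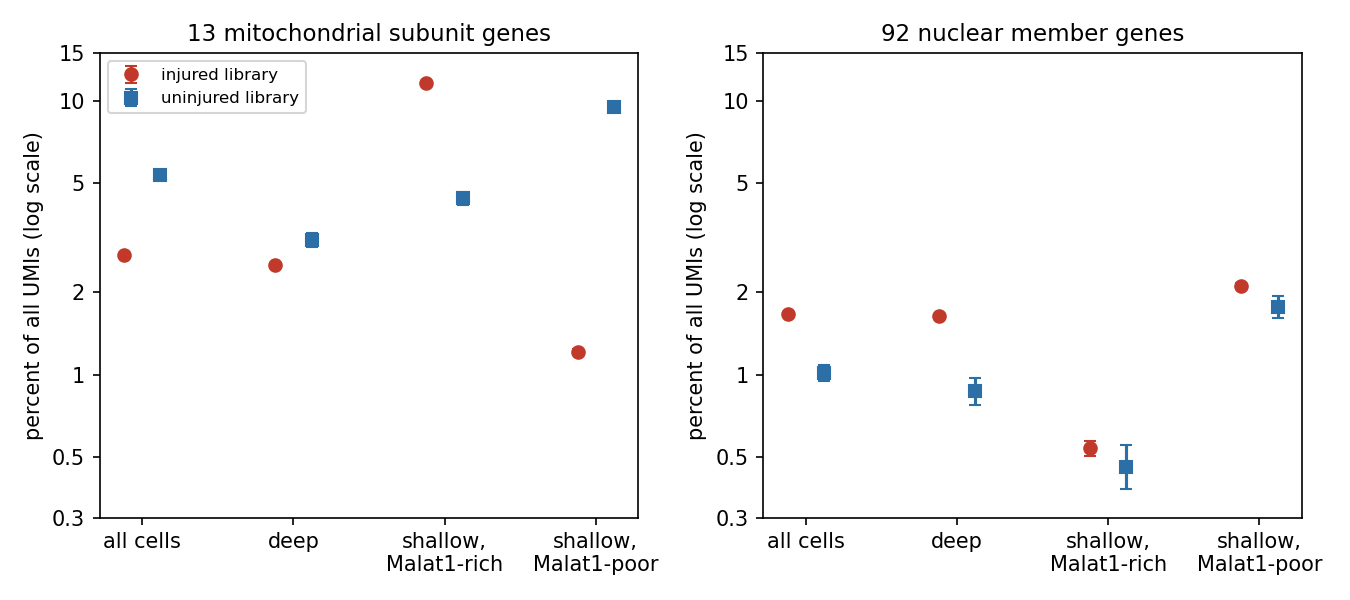
Share of all UMIs taken by the 13 mitochondrial (left) and 92 nuclear genes (right), in all cells and in each kind of cell, for the injured (red circles) and uninjured library (blue squares), on a log axis with exact 95% Poisson intervals. The mitochondrial share is 11.7% in injured and 4.41% in uninjured Malat1-rich cells and 1.21% and 9.52% in Malat1-poor cells, while the nuclear shares of both libraries are lowest in Malat1-rich cells.

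Nuclear members followed the kind of cell in the same way in both libraries. Their share was 2.12% of injured and 1.76% of uninjured UMIs in Malat1-poor cells, a ratio of 1.20 (1.09 to 1.32). In Malat1-rich cells it was 0.537% and 0.461%, a ratio of 1.17 whose interval (0.962 to 1.42) includes 1. Deep cells had 1.64% and 0.871%, a ratio of 1.88 (1.68 to 2.11), and leaving out the haemoglobin-rich cell gave 1.37 (1.22 to 1.54). The ratio in shallow cells of both kinds together was 1.56 (1.44 to 1.70), above that of either kind. This pooled ratio mixes the kinds in unlike parts. Malat1-rich cells held 25613 of 51563 uninjured and 176228 of 745006 injured shallow UMIs. Among all genes compared, 49.8% were higher and 15% lower in deep cells of the injured library, 36.4% and 30.7% in Malat1-rich and 47.8% and 19.8% in Malat1-poor cells. Beside these shares, 53 nuclear members were higher and 0 lower in deep cells, 34 and 17 in Malat1-rich cells and 25 and 8 in Malat1-poor cells, of 77 each. Without the haemoglobin-rich cell the counts in deep cells were 37 higher and 2 lower, beside 40.4% and 25.1% of all genes. The 13 mitochondrial genes were all lower in Malat1-poor cells, while 12 were higher and 0 lower in Malat1-rich cells and 4 were higher and 4 lower in deep cells, or 3 and 5 without that cell.

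The deep class rests on few uninjured cells and on a range of depths that the libraries did not share. All 4 uninjured deep cells had under 15000 UMIs, whereas 99 of the 144 injured deep cells had more. In cells from 5000 to 15000 UMIs (45 injured and 4 uninjured cells) the mitochondrial share was 3.60% and 3.10%, so that the ratio turned to 1.16 (1.09 to 1.24). Without the haemoglobin-rich cell it was 0.898 (0.842 to 0.958). The nuclear ratio in the same range was 1.48 (1.32 to 1.67) with that cell and 1.08 (0.962 to 1.22) without it. The mitochondrial to nuclear balance in this range was 0.783 of the uninjured one (0.686 to 0.892), compared with 0.431 over all deep cells and 0.457 (0.400 to 0.521) over these without the haemoglobin-rich cell.

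Within the injured library, Malat1-rich cells combined a high mitochondrial with a low nuclear level. Their mitochondrial share was 9.63-fold that of Malat1-poor cells (9.37 to 9.90), and their nuclear share was 3.94-fold lower (3.69 to 4.21). There were 21.8 mitochondrial UMIs per nuclear UMI in Malat1-rich, 0.573 in Malat1-poor and 1.53 in deep injured cells. All 13 mitochondrial genes were higher in Malat1-rich cells, where 38.3% of all genes compared were higher, with log2 ratios from 2.83 for mt-Nd1 to 3.69 for mt-Nd6. The 4 complexes with mitochondrial subunits differed by like amounts, from 9.51-fold for complex V to 9.83-fold for complex III. Of the 77 nuclear members, 73 were lower, where 36% of all genes compared were lower, and 0 were higher. The other 4 were Sdha, Ndufv1, Ndufs1 and Atp5a1, with log2 ratios of -0.30, -0.25, -0.43 and -0.40. They encode catalytic or core subunits, but so do Uqcrfs1, Uqcrc1, Sdhb, Ndufs3 and Ndufs8, which were among the 73 lower. The 4 genes were named after their values had been seen. Deep injured cells lay nearer to the Malat1-poor ones. Relative to these they had all 13 mitochondrial genes higher and 7 of 77 nuclear members lower, 0 higher, where 19.2% of all genes compared were higher and 5.92% lower. Malat1-rich relative to deep injured cells had all 13 mitochondrial genes higher and 72 nuclear members lower, 0 higher, beside 34.6% and 33.3% of all genes compared.

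The measured extent varied among nuclear complexes. Malat1-rich injured cells had 5.69-fold less of complex III than Malat1-poor ones (4.48 to 7.34), 4.10-fold less of complex I (3.63 to 4.66), 3.81-fold less of complex IV (3.36 to 4.34), 3.68-fold less of complex V (3.27 to 4.16) and 2.28-fold less of complex II (1.54 to 3.48). The intervals of complexes II and III do not overlap, but they rest on 29 and 71 Malat1-rich UMIs and cover counting error only. In the uninjured library these complexes were 3.45-fold (0.658 to 34.1) and 4.05-fold lower (1.99 to 9.06), with overlapping intervals. Among abundant members, Uqcrh stood at 90.8 CPM in Malat1-rich and 612 CPM in Malat1-poor injured cells, Atp5e at 142 and 877 CPM and Cox8a at 272 and 1065 CPM. In the uninjured library the nuclear share of Malat1-rich cells was likewise lower, by 3.83-fold (3.12 to 4.73), but their mitochondrial share was also lower there, by 2.16-fold (2.01 to 2.32). The order of the kinds by nuclear share was therefore the same in both libraries, and the order by mitochondrial share was not.

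The 86 genes of cytosolic ribosomal proteins are another large set of housekeeping messages translated in the cytosol. Between kinds of injured cells they followed the nuclear members. They were 4.17-fold lower in Malat1-rich than in Malat1-poor injured cells (4.07 to 4.26). Between libraries the sets differed. In Malat1-poor cells the ribosomal genes took 18.4% of injured and 24.9% of uninjured UMIs, a ratio of 0.738 (0.720 to 0.757). The nuclear members had a ratio of 1.20 there. Over all cells the ribosomal ratio was 1.06 and the nuclear ratio 1.63. For every 100 ribosomal protein UMIs there were 11.3 nuclear member UMIs in deep injured cells (11.2 to 11.4), 12.2 in Malat1-rich (11.4 to 13) and 11.5 in Malat1-poor injured cells (11.3 to 11.7). The uninjured values were 7.05 (6.27 to 7.91), 9.81 (8.05 to 11.9) and 7.08 (6.43 to 7.79), and without the haemoglobin-rich cell the deep value was 7.08 (6.27 to 7.97). Within the injured library this quantity varied little between kinds, even though the nuclear share itself varied several-fold. In every kind of cell it was higher in the injured library. In Malat1-rich cells the intervals of the libraries overlapped, which does not show that the values are equal.

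**Figure D3:**
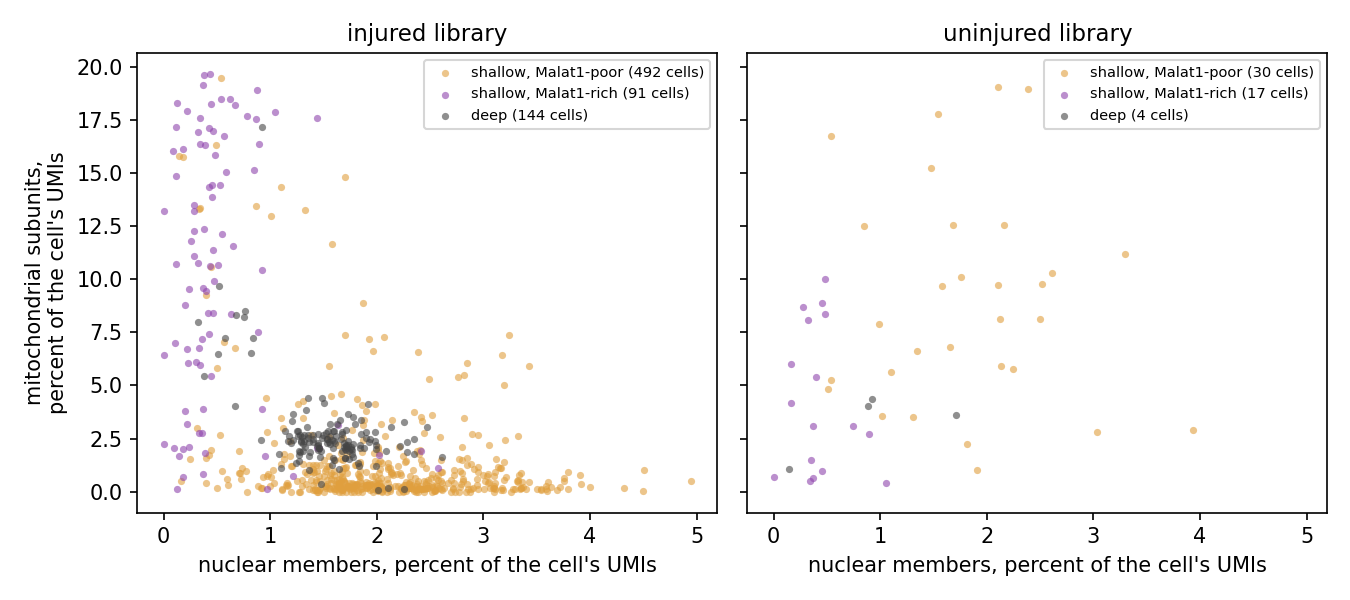
Mitochondrial subunit share against nuclear member share, each as percent of the cell's UMIs, with 1 point per cell, in the injured (left) and the uninjured library (right), coloured by kind of cell. Injured Malat1-rich cells spread upward along the left side (medians 10.7% and 0.393%), injured Malat1-poor cells lie along the bottom (0.503% and 2.01%), and uninjured Malat1-poor cells reach high values of both (8.11% and 1.78%).

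Per cell, the 2 parts ran against each other in the injured library. Spearman's rho between mitochondrial and nuclear share was -0.51 over 727 injured and 0.37 over 51 uninjured cells. Among injured cells of a single kind it was -0.32 (deep), 0.06 (Malat1-rich) and -0.20 (Malat1-poor). Among uninjured cells of a single kind it was -0.04 (Malat1-rich, 17 cells) and 0.05 (Malat1-poor, 30 cells). These are descriptions over cells of 1 library, which share depth and the sum to which shares are scaled. Spread within kinds was wide: the quartiles of injured Malat1-rich cells were 3.90% and 16.2% mitochondrial subunit UMIs, and those of injured Malat1-poor cells 0.183% and 1.26%. Of the 492 injured Malat1-poor cells, 30 had no mitochondrial subunit UMI and 32 had 5% or more. Among the 144 deep injured cells, 11 had 5% or more, and the highest share of any of the 778 cells was 19.7%. The highest uninjured share was 19.0%, and 0 of 727 injured and 0 of 51 uninjured cells had 20% or more. Neither the labels nor the notes state whether the authors set a limit on the mitochondrial share. What such a limit would do to the levels given here was not tested.

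Along the Malat1 share of shallow injured cells, the levels differed most between cells under 0.5% and cells over 1%. The mitochondrial share was 0.876% in cells under 0.1% Malat1, 1.39% from 0.1% to 0.5%, 3.60% from 0.5% to 1%, and 11.6%, 12.5% and 10.7% from 1% to 2%, from 2% to 5% and above. The nuclear share went from 2.18%, 2.08% and 1.74% to 0.671%, 0.560% and 0.416% in the same cells. In the bin from 0.5% to 1%, with 38 cells, the median cell had 0.864%, below the 3.60% of the summed UMIs. Uninjured shallow cells under 0.1% Malat1 already had 9.90% (20 cells), and those at 5% and over had 3.67% (9 cells).

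**Figure D4:**
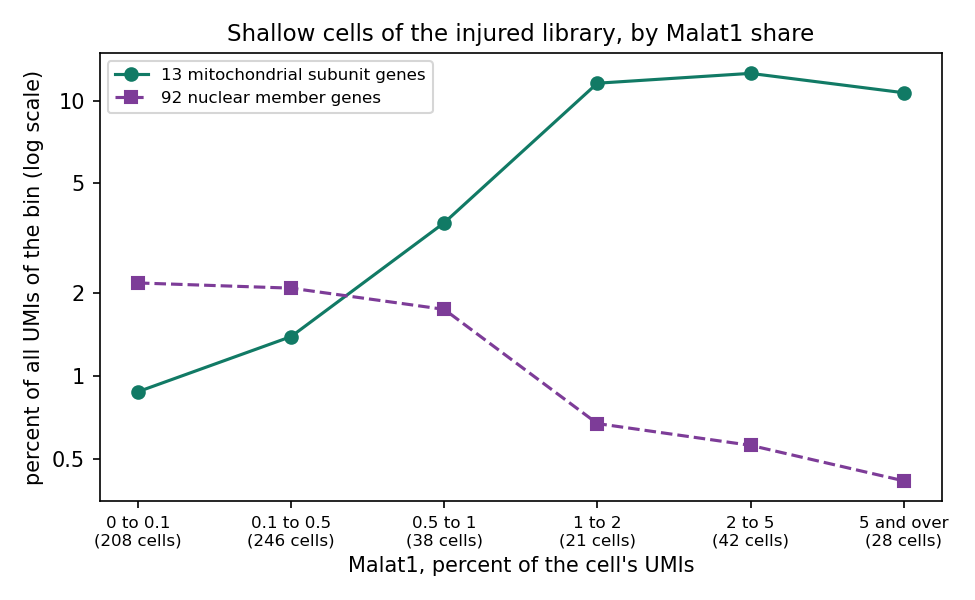
Share of all UMIs taken by the 13 mitochondrial (green circles) and 92 nuclear genes (purple squares) in shallow cells of the injured library, in 6 bins of the Malat1 share, on a log axis with the number of cells under each bin. The lines cross between the second and the third bin, and the mitochondrial share is 11.6%, 12.5% and 10.7% in the last 3 bins.

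Myelin transcripts, a sign of RNA from oligodendrocytes or of ingested myelin, moved with the library and in part with the kind of cell. All 8 listed myelin and oligodendrocyte markers were seen in both libraries. They took 0.514% of UMIs in injured and 1.85% in uninjured Malat1-poor cells, 0.273% and 0.765% in Malat1-rich cells and 0.0317% and 0.167% in deep cells, where the uninjured value was 0.169% without the haemoglobin-rich cell. Single cells ranged from 0% to 9.80% in the injured and from 0.0627% to 5.52% in the uninjured library. The astrocyte list stood at 0.0172% and 0.107%, and in Malat1-rich cells at 0.0494% and 0.324%, of injured and uninjured UMIs. All 83 astrocyte-list UMIs of uninjured Malat1-rich cells came from Slc1a3, and the other 5 markers, among them Gfap and Aqp4, were at 0 there. The neuron and axon list stood at 0.000487% and 0.0377%. In the uninjured library Snap25, Syt1, Nefl, Nefm, Stmn2 and Tubb3 were at 0, and so were the T cell and neutrophil lists. In the injured library the T cell list had 94 UMIs in 7 cells, at most 0.587% of a cell's UMIs. The neutrophil list had 62 UMIs in 39 injured cells, at most 1.55%. A list of endothelial and mural markers reached 0.276% in an injured and 1.65% in an uninjured cell. The part of such RNA in the mitochondrial levels was not tested.

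The libraries also differed in how the mitochondrial UMIs were divided among the 13 genes. Together mt-Nd4l, mt-Nd4, mt-Nd5 and mt-Nd6, which follow one another on the chromosome, took 15.6% of the mitochondrial subunit UMIs of the injured and 8.06% of the uninjured library. This group was chosen after its values had been seen. Within the injured library its share was 15.7% of deep, 15.7% of Malat1-rich and 14.7% of Malat1-poor cells' mitochondrial UMIs, although the mitochondrial level of these kinds ranged from 1.21% to 11.7%. The same kinds had 7.91%, 6.11% and 9.02% in the uninjured library. In cells with at least 20 mitochondrial UMIs, the median share was 15.3% over 294 injured cells (quartiles 13% and 17.9%) and 8.33% over 42 uninjured cells (6.55% and 9.80%). Without the cell richest in mitochondrial UMIs the uninjured share was 7.92%, and without the haemoglobin-rich cell 8.09%.

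By gene, mt-Nd4 took 10.2% of injured and 5.50% of uninjured mitochondrial UMIs, and mt-Nd4l 2.74% and 1.04%. As these genes overlap, only their sum is free of doubt about the shared bases, and there were 26.8 mt-Nd4l UMIs for every 100 of mt-Nd4 in the injured and 18.9 in the uninjured library. In the other direction, mt-Nd1 took 3.44% and 6.26%, mt-Nd3 1.58% and 2.95%, and mt-Co3 14.1% and 18.4%. A higher injured share was also found for mt-Co2 (16.5% and 14.1%) and mt-Cytb (9.35% and 7.89%). A lower one was also found for mt-Nd2 (5.04% and 6.26%) and mt-Atp6 (18.4% and 19.7%). The counting intervals of these ratios over all cells exclude no difference. The shares of mt-Co1 (14.8% and 15.5%) and mt-Atp8 (1.10% and 0.827%) had ratios whose counting intervals include no difference. Complex I thus held genes at both ends, with mt-Nd1 and mt-Nd3 lower and mt-Nd4l, mt-Nd4, mt-Nd5 and mt-Nd6 higher as a share of mitochondrial UMIs. The mt-Nd1, mt-Nd3 and mt-Co3 shares were lower and the mt-Nd4l and mt-Nd4 shares higher in the injured library within all 3 kinds of cell, with counting intervals that exclude no difference. Differences in handling or sequencing of the libraries cannot be told apart from injury here.

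**Figure D5:**
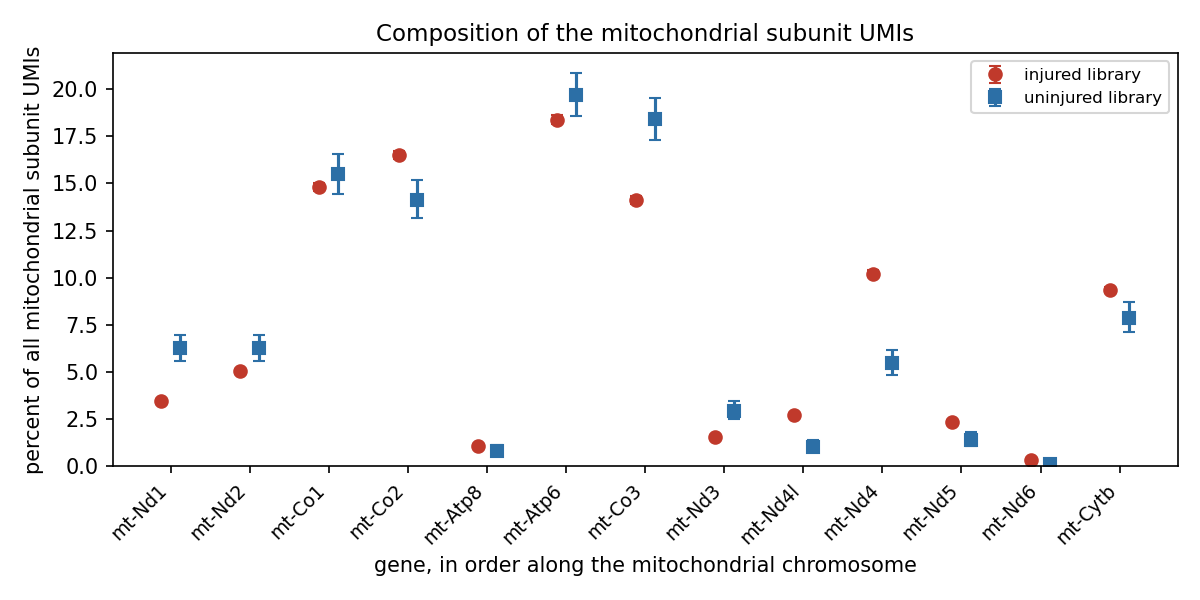
Share of all mitochondrial subunit UMIs taken by each of the 13 genes, in their order along the mitochondrial chromosome, for the injured (red circles) and uninjured library (blue squares), with exact 95% Clopper-Pearson intervals. The injured library lies higher from mt-Nd4l to mt-Nd6 (10.2% against 5.50% for mt-Nd4) and lower at mt-Nd1, mt-Co3 and mt-Nd3. By smaller ratios it also lies higher at mt-Co2 and mt-Cytb and lower at mt-Nd2 and mt-Atp6.

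Isoforms typical of other tissues were rare. Cox6a2, the heart and skeletal muscle form of a complex IV subunit, had 101 UMIs in 63 injured cells, at most 6 in a cell, and 1 UMI in the uninjured library. Of the injured UMIs, 70 were in deep, 31 in Malat1-poor and 0 in Malat1-rich injured cells. On chr7:128205435-128206387, minus strand, Cox6a2 lies inside the span of the integrin gene Itgad on the opposite strand, next to Itgax and Itgam, and it is not stated whether counting used strand. Itgad itself had 6 injured UMIs, and 1 of the 63 cells with Cox6a2 had Itgad. Itgax was seen in 34 and Itgam in 38 of these 63 cells, and in 203 and 160 of all 727 injured cells. Among deep injured cells, Itgax was seen in 33 of the 40 with Cox6a2 and in 106 of all 144, and Itgam in 36 and 107. Cox7a1, another muscle form, had 14 injured and 0 uninjured UMIs, the testis form Cox6b2 had 12 and 3, which is 10.6-fold lower by CPM (1.91 to 39.2), and Ndufa4l2, a hypoxia-induced relative of Ndufa4, had 2 and 0. At these counts no difference between libraries was detectable for Cox7a1 and Ndufa4l2, since 0 uninjured UMIs allow up to 34.3 CPM.

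Other genes of the pathway were counted in the same way. Of 149 listed genes outside the name rule, 85 were compared. In the injured library 44 of these were higher and 2 lower, beside 32.8% and 21.8% of all genes compared, and the median log2 ratio was 0.59. Of them 67 passed the filter through the injured library only, with 37 higher and 1 lower (43.7% and 9.1% of all such genes), and 18 passed in both, with 7 higher and 1 lower (17% and 37.2%). Malat1-rich injured cells had 71 of the 85 lower and 3 higher than Malat1-poor ones, beside 36% and 38.3% of all genes. The mitochondrial ribosome, which synthesises the 13 mitochondrial subunits, had 32 of 51 compared genes higher and 0 lower. Of these genes 47 passed through the injured library only, and 30 of the 47 were higher, while 2 of the 4 that passed in both were higher. Its genes Mrpl52 and Mrpl33 stood at 242 and 103 CPM and at 179.6 and 68.6 CPM in the injured and uninjured library. Among carriers, 4 of 6 were higher and 0 lower. Those with most UMIs were the phosphate carrier gene Slc25a3, at 515 and 286 CPM, and the outer membrane channel gene Vdac2, at 387 and 194 CPM. The highest ratio of the list, 3.10 (1.20 to 11.4) on 4 uninjured UMIs, was that of Vdac1, which encodes another such channel. The 11 genes of the tricarboxylic acid cycle, which feeds electrons to the chain, had 2 higher and 1 lower and a median of -0.04. The electron carrier cytochrome c (Cycs) stood at 74.6 and 45.7 CPM. Cytochrome c1 (Cyc1), a subunit of complex III that the name rule left out of its sum, stood at 79.8 and 114 CPM. The intervals of both ratios include 1. Complex IV assembly genes had 1 of 6 higher and 1 lower. Of the 12 transcription factors and regulators of mitochondrial genes, only Slirp was seen in enough cells to compare (67.9 and 22.9 CPM).

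Shares of cells with a UMI depend on depth, so cells were also thinned to 500 UMIs each, which left out 2 uninjured cells and no injured cell. A UMI of any mitochondrial subunit was then found in 87.1% of 727 injured cells (84.4% to 89.4%) and in all 49 uninjured cells (lower limit 92.7%), compared with 95.9% and 100% unthinned. By kind, thinned injured cells with such a UMI made up 98.6% of deep, 98.9% of Malat1-rich and 81.5% of Malat1-poor cells. A UMI of mt-Co1 was found in 42.3% of 492 Malat1-poor injured cells (37.9% to 46.8%) and in all 28 thinned uninjured ones. For nuclear members the order of kinds was the opposite, with any member seen in 85.7% of thinned Malat1-rich and 99.6% of Malat1-poor injured cells. Cox8a was seen in 14.3% of thinned Malat1-rich (7.83% to 23.2%) and 38.8% of Malat1-poor injured cells (34.5% to 43.3%).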

How the data were processed

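Cells of 2 libraries, from digested optic nerves, went through 10x Genomics droplet capture (3' kit, v2), per the labels' protocols. Per the submitters' processing notes reads were handled with Cell Ranger 1.3 (build mm10), Seurat 4.0.3 and bcl2fastq 2.17.1.14. The gene annotation, the strand setting and the way cells were chosen as macrophages or microglia are not given in the sources used here. Raw UMI counts, not normalized, were deposited in 1 table, for the 778 cells that the authors kept (200 to 6500 genes per cell, per the series' design text). No doublet caller was run.

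The members, gene lists and kinds of cell were chosen with earlier results of these data known. UMIs were summed per library and kind of cell. Levels carry exact Poisson intervals, ratios exact conditional binomial intervals, shares exact Clopper-Pearson intervals, and ratios of mitochondrial to nuclear UMIs exact conditional odds ratio intervals. UMIs clump in few cells, which these intervals do not cover. Log2 ratios used a pseudocount of 10 CPM, which shrinks the ratios of scarce genes, and can overstate them too, since 0 uninjured UMIs allow up to 34.3 CPM. Complexes were assigned by gene name, with Ndufa4 in complex IV. Named members were all mitochondrial genes, the 3 nuclear genes with most UMIs in each complex, the 6 highest and 6 lowest log2 ratios, and tissue isoforms. For other pathway lists they were the 2 genes with most UMIs and the largest ratio, of which some are given. The 26 rows with names turned into dates stayed in totals only. Alternatives were other weights, cells, totals, filters, pseudocounts and limits of the kinds. The scripts were tested on simulated data (Python 3.11.15, numpy 2.4.6, scipy 1.17.1, matplotlib 3.10.9).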

Additional observations from a re-analysis of the deposited data

Results flagged for a closer look

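The mitochondrial subunit level differed between the libraries in opposite directions in different kinds of cell, and the difference between kinds was not tested, since there is 1 library per group. Injured over uninjured ratios were 0.811 for deep cells, 2.65 for Malat1-rich cells and 0.127 for Malat1-poor cells. The same holds for mitochondrial UMIs per nuclear UMI, with ratios of 0.431, 2.27 and 0.106. Without the haemoglobin-rich cell the deep ratios were 0.626 and 0.457. The uninjured side of these ratios rests on 4, 17 and 30 cells.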

How the results depend on the processing

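Each group has 1 library and the deepest 10% of the cells held 56.2% of injured and 44.9% of uninjured UMIs, so values follow few cells and rest on the uninjured counts. No paired analysis was possible because each group has 1 library, and no library could be left out. Of 94 alternatives, 46 stayed within the counting interval of the reported value or within 1.5 times the reported count, 46 moved beyond it and 2 reversed a ratio whose interval excluded 1. The causes were not tested. With each cell weighted equally, the injured over uninjured ratios were 1.37 (nuclear), 0.398 (mitochondrial) and 0.290 (mitochondrial per nuclear UMI), and by complex 0.424, 0.472, 0.370 and 0.408 for the mitochondrial parts of I, III, IV and V and 1.26, 1.3 and 1.47 for the nuclear parts of I, IV and V. Without the haemoglobin-rich cell they were 1.45 (nuclear) and 0.457 (mitochondrial), and 0.499, 0.432 and 0.433 for the mitochondrial parts of I, IV and V. Without the deepest 10% of the cells they were 1.43 (nuclear) and 0.357 (mitochondrial per nuclear UMI), and with mitochondrial, ribosomal and haemoglobin genes taken out of the total 1.37 (nuclear) and 0.427 (mitochondrial). The count of lower nuclear members went from 0 to 5 without a filter, 3 with equal weights and 2 without the deepest 10%, while the higher count stayed between 32 and 45. In deep cells the lower count went from 0 to 2 and the higher count from 53 to 37 without the haemoglobin-rich cell, also chosen after seeing the data. In deep cells the mitochondrial ratio was 0.700 with the limit at 3000 UMIs, 0.626 without the haemoglobin-rich cell and reversed to 2.31 at 10000 UMIs, where that cell alone is left on the uninjured side. It also reversed to 1.16 in cells from 5000 to 15000 UMIs, an alternative chosen after seeing the data, and was 0.898 there without that cell. The nuclear ratio in deep cells was 11.6 at 10000 UMIs, 1.67 with equal weights, 1.37 without the haemoglobin-rich cell, 1.48 from 5000 to 15000 UMIs and 1.08 there without that cell. In Malat1-rich cells the mitochondrial ratio was 2.12 and 2.22 with deep limits of 3000 and 10000 UMIs, 2.40 and 2.41 with Malat1 limits of 0.5% and 2%, and 2.37 with equal weights. The nuclear ratio there, 1.17 with an interval that includes 1, turned to 0.819 with the 10000 limit and was 1.52 with the 0.5% limit. In Malat1-poor cells the mitochondrial ratio was 0.146 and 0.136 with the 2 depth limits, 0.115 and 0.219 with the 2 Malat1 limits, and 0.154 with equal weights. The share of injured cells with a mitochondrial UMI was 95.9% unthinned. The share of mt-Nd4l to mt-Nd6 in the injured library was 15.4% without the deepest 10% and also 15.4% with equal weights, both added after seeing the data.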
